A study of Mus musculus with 43 samples.

Results

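The WT-only EKLF regions at gene ends, called members here, are the 2700 stretches of EKLF occupancy that were listed in wild type (WT) fetal liver, shared no base with any region listed in Nan/+ fetal liver, and had their centre no more than 1 kb from the start or the far end of a protein-coding gene. They were part of a list of 9181 WT regions. They were chosen from the overlap of the region lists and from the distance to gene ends, so their absence from the Nan/+ list and their closeness to gene ends are descriptions, with no test. EKLF was mapped by chromatin immunoprecipitation and sequencing (ChIP-seq, antibody 7B2a) in primary erythroid cells of E13.5 mouse fetal liver, in 3 Nan/+ samples and in 3 WT samples labelled as WT of the Nan strain. The embryos were littermates, and the study asked how EKLF acts on erythroid genes when one Klf1 allele carries the Nan change. Each genotype has 1 region list, made from its 3 libraries together, so no value below has a spread between samples. The Nan/+ cells carry 1 Nan allele and 1 normal allele, and Nan is a whole-body mutation present in every cell. Cells were taken from dispersed whole livers, so a region bound in fewer cells and one bound more weakly in each cell cannot be told apart. The members are set beside the 1530 WT regions at gene ends that overlapped a Nan/+ region (shared), the 1844 Nan/+ regions at gene ends that overlapped no WT region (Nan-only), and the 4228 WT-only regions elsewhere.

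EKLF, the product of Klf1, is a zinc finger transcription factor of red cell precursors that binds CACCC elements in globin, heme, membrane and cell cycle genes. The Nan mutation exchanges 1 amino acid in a DNA-contacting zinc finger, and the altered protein is known to keep binding some CACCC variants and not others, depending on the base at the centre of the element. The mid-gestation fetal liver is where most red cells of the embryo are made.

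The promoters below show what the DNA under these regions looks like at 8 genes with a WT-only region at the start, followed by 2 genes whose start carried a shared region. They run from the 250 bases before to the 50 bases from the annotated start, 5′ to 3′ on the coding strand, and are RefSeq sequences of GRCm38.p6, the build that mm10 is taken from. Capitals mark matches to CCNCNCCC, the CACCC element in which N stands for any base, on either strand (present in 57.1% of all 21045 promoter windows), and overlapping matches run together. Hbb-bs (adult β-globin; chr7:103827879-103828178, minus strand), Hbb-bt (the other adult β-globin; chr7:103813874-103814173, minus strand), Klf1 (EKLF itself; chr8:84901732-84902031, plus strand), Epor (the erythropoietin receptor; chr9:21963527-21963826, minus strand), Icam4 (a red cell adhesion molecule; chr9:21029182-21029481, plus strand), Slc25a38 (the mitochondrial glycine importer of heme synthesis; chr9:120110132-120110431, plus strand), Tfrc (the transferrin receptor; chr16:32608646-32608945, plus strand) and Fzr1 (an activator of the anaphase-promoting complex; chr10:81378321-81378620, minus strand) had WT-only regions. E2f2 (a cell cycle transcription factor; chr4:136172024-136172323, plus strand) and Epb42 (a red cell membrane skeleton protein; chr2:121036828-121037127, minus strand) had shared regions.
Hbb-bs: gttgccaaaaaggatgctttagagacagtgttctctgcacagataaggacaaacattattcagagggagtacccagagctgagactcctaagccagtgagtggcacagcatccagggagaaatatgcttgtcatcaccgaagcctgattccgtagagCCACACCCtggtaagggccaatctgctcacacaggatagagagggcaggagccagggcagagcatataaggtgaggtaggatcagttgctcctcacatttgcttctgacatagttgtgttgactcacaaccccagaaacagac
Hbb-bt: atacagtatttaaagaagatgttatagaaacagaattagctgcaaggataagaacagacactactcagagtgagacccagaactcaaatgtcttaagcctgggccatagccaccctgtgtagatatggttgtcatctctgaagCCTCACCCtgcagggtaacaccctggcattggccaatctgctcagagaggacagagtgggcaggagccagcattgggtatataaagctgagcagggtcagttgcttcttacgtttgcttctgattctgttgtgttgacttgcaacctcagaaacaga
Klf1: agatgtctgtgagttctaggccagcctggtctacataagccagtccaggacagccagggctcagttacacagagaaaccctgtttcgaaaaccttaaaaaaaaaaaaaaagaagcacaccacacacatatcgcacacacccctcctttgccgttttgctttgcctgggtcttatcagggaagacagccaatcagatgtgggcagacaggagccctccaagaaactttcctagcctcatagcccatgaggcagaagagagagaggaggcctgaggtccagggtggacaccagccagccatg
Epor: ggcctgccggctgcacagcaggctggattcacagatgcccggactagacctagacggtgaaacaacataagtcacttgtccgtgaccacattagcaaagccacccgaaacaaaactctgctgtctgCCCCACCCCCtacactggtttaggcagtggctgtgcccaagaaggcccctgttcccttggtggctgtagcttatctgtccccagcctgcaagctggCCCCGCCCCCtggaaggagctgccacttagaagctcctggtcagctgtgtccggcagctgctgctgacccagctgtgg
Icam4: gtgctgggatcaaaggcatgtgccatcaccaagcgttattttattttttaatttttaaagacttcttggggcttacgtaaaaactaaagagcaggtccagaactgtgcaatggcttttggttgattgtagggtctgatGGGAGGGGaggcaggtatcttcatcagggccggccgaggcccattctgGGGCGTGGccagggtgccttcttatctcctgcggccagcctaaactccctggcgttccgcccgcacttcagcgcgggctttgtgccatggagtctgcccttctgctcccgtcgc
Slc25a38: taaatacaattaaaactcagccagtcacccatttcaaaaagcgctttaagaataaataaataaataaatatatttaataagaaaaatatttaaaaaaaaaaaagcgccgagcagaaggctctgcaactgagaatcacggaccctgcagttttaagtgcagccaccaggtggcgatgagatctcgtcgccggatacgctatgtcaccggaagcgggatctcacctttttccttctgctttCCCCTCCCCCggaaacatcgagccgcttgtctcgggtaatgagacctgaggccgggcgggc
Tfrc: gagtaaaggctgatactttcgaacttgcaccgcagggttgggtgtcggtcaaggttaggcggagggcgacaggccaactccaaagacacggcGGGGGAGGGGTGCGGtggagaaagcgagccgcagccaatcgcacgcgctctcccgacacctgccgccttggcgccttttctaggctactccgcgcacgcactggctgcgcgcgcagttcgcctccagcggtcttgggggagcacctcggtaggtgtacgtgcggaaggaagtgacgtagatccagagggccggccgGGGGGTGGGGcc
Fzr1: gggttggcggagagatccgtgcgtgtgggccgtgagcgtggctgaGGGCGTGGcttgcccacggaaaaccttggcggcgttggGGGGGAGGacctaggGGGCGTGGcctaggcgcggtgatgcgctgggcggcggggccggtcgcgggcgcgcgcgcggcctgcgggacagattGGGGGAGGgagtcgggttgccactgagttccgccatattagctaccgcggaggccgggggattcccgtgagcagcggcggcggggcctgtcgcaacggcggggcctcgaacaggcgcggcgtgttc
E2f2: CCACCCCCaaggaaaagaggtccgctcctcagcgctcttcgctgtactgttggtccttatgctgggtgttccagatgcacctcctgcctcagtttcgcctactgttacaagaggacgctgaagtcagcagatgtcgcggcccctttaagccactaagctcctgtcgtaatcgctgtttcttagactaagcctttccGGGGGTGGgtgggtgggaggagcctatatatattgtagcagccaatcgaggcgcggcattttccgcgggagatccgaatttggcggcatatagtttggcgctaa
Epb42: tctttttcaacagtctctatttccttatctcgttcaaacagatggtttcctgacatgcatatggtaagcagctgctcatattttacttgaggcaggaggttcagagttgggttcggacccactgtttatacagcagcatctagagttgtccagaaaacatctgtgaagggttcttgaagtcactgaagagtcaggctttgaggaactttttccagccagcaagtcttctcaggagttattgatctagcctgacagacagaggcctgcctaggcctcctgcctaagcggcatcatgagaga

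The Hbb-bs promoter held a single match, CCACACCC, 93 to 86 bases before the start, and the WT-only region chr7:103827833-103828324 covered it. Hbb-bt held CCTCACCC 107 to 100 bases before its start, which its WT-only region, chr7:103813667-103813970, did not reach. Epor held CCCCACCC 124 to 117 bases and CCCCGCCC 28 to 21 bases before the start, each with a second overlapping match shifted by 2 bases. Fzr1 held CCACGCCC on the opposite strand at 205 to 198 and again at 152 to 145 bases before the start, and Icam4 held it on the opposite strand at 64 to 57 bases. The Klf1 window had no match, and neither did the Epb42 window, although each was wholly covered by a region. The sequence AGATAA, a form of the core that GATA factors bind (in 9.68% of all windows), occurred once each in Hbb-bs, Epor, Icam4 and Epb42. Other forms were not counted, and the Klf1 window holds TGATAA on the opposite strand. A match here is a string of letters and not a tested binding site.

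The members were mid-sized regions. Their median width was 440 bp (95% interval 429 to 449, n = 2700), with quartiles of 314 and 614 bp, against 550 bp (536 to 567) for shared WT regions at gene ends. WT-only regions away from gene ends were narrower, at 321.5 bp (315 to 328). Nan-only regions at gene ends had a median of 226 bp, but the Nan/+ list was made with a larger minimum width (176 bp, against 126 bp in WT), so widths in the Nan/+ list and the WT list are not comparable. Only 42 members (1.56%) had the minimum width, and 1079 (40.0%) were 500 bp or wider, against 57.8% of shared regions. The intervals around these values, here and below, are exact and cover counting error only, because the lists hold no value per sample.

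**Figure D1:**
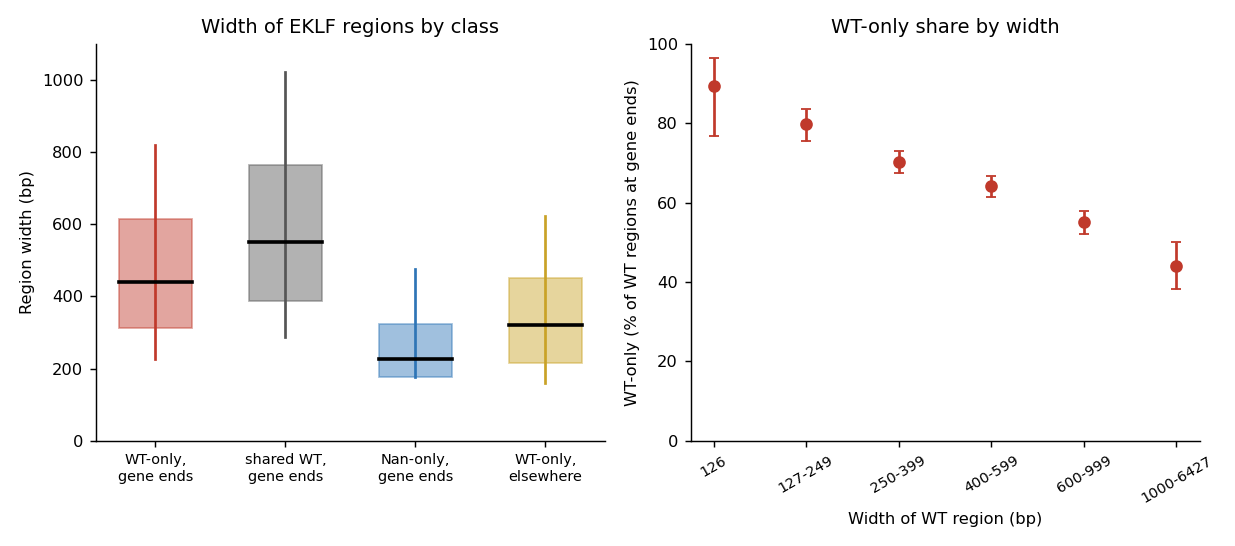
Left, width in bp of EKLF regions in each class (box, quartiles; black line, median; thin line, 10th to 90th percentile), with members at a median of 440 bp and shared regions at 550 bp. Right, percentage of WT regions at gene ends that were WT-only in each width class in bp (points, with exact 95% intervals), which was 89.4% at the minimum width and 44.0% at 1000 bp and over.

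Of the 4230 WT regions at gene ends, 63.8% (62.4 to 65.3) were WT-only, and this percentage was lower in each wider class. It was 79.9% at 127 to 249 bp (322 of 403), 64.1% at 400 to 599 bp (827 of 1290) and 44.0% of the 284 at 1000 bp and over. A wide region has more bases with which to meet a Nan/+ region, and the part this played was not tested. The members still included very wide regions. The widest was chr8:105303061-105306063, 3003 bp at E2f4, an E2F factor needed for fetal red cell maturation, and at its neighbour Elmo3, an engulfment adaptor. Next came 4930404N11Rik at 2119 bp, the far end of the mitotic kinase gene Aurka at 1951 bp, Apeh (an acylaminoacyl peptide hydrolase) at 1847 bp and Gsk3a (glycogen synthase kinase 3α) at 1809 bp. Tfrc carried 1774 bp (chr16:32607688-32609461) around its start and Slc4a1, which encodes the band 3 anion exchanger, 1561 bp (chr11:102364576-102366136).

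Most members had no Nan/+ region within 10 kb. The median gap to the nearest one was 17584 bp, and 13.1% of members (353) had one within 1 kb, 37.6% (1014) within 10 kb and 88.0% (2377) within 100 kb. These gaps were not compared with those of other positions. At the edge of the overlap rule, 26 members (0.963%) had a Nan/+ region no more than 50 bp away, 1 of them touching it, while 26 shared regions (1.70%) overlapped by no more than 50 bp, the smallest overlap being 3 bp and the median 322 bp. At the edge of the distance rule, 23 members had their centre 950 to 1000 bp from a gene end and 32 WT-only regions lay 1000 to 1050 bp away. The Aurka region was an example of a close neighbour, 120 bp from a Nan/+ region, whereas the region at Slc25a38 was 111159 bp from one.

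Most members lay at gene starts. The direction of transcription was known for 2198 of them, and the nearest end was the start in 2017 (91.8%; 90.5 to 92.9) and the far end in 181 (8.24%). For shared regions the start took 95.5% (94.2 to 96.5; 1217 of 1275), and for Nan-only regions 76.2% (73.9 to 78.3; 1132 of 1486). Members at a start had their centre a median of 123.5 bp from it, with 72.7% (1466) within 250 bp and 47.3% (954) upstream of it. Shared regions at a start were a median of 114 bp away, with 78.3% within 250 bp. Between 400 and 600 bp downstream of the start lay 6.54% (5.50 to 7.71) of members and 4.35% of shared regions.

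**Figure D2:**
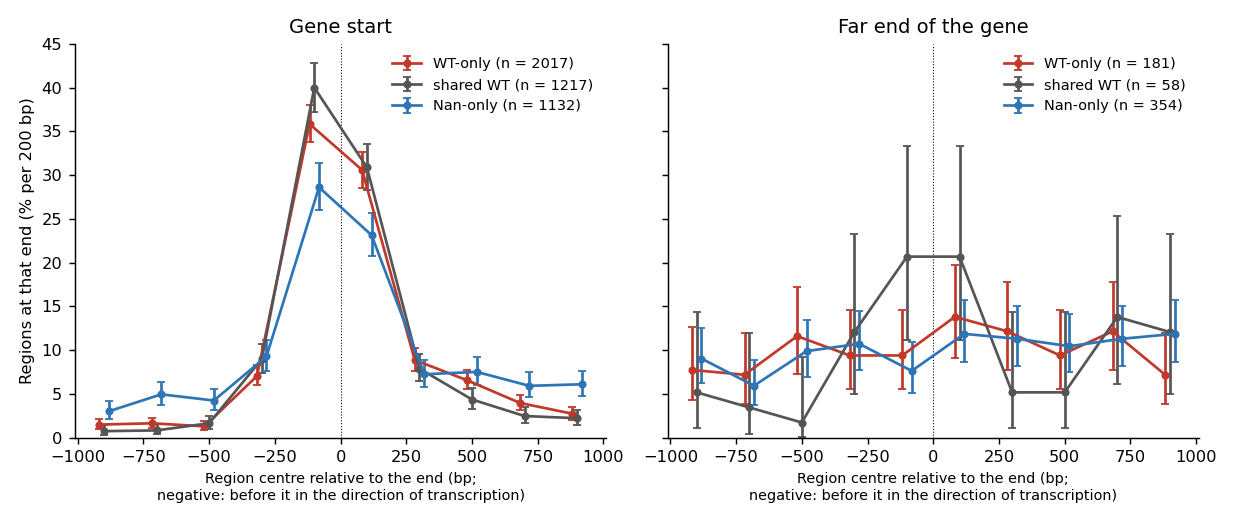
Percentage of regions per 200 bp by the position of their centre, in bp, relative to the gene start (left) or the far end (right), for members, shared WT regions and Nan-only regions (points, with exact 95% intervals). Members peaked in the 200 bp before the start (35.9%) and the 200 bp after it (30.6%), and showed no comparable peak at far ends.

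The 181 members at far ends were spread more evenly. Their median distance from the end was 456 bp, 29.8% (54) lay within 250 bp, 45.3% (82) were inside the gene, and their median width was 347 bp, against 447 bp for members at starts. Shared regions at far ends were few (58), with a median width of 621 bp. Several far-end members sat at erythroid and cell cycle genes and were wide. E2f2 is the clearest case, with a shared region of 504 bp at its start (chr4:136171945-136172448) and a WT-only region of 1372 bp (chr4:136194956-136196327) whose centre was 416 bp inside its far end. Alad, which makes porphobilinogen in heme synthesis, had no region at its start and a WT-only region of 1400 bp (chr4:62505936-62507335) at its far end. Alas2, which starts heme synthesis in red cells, had a WT-only region of 820 bp (chrX:150570461-150571280) across its far end and a Nan-only region of 251 bp at its start. Zfpm1, which encodes the GATA1 partner FOG1, had a shared region at its start and a WT-only region of 833 bp across its far end. This WT-only region was 107 bp from a Nan/+ region.

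**Figure D3:**
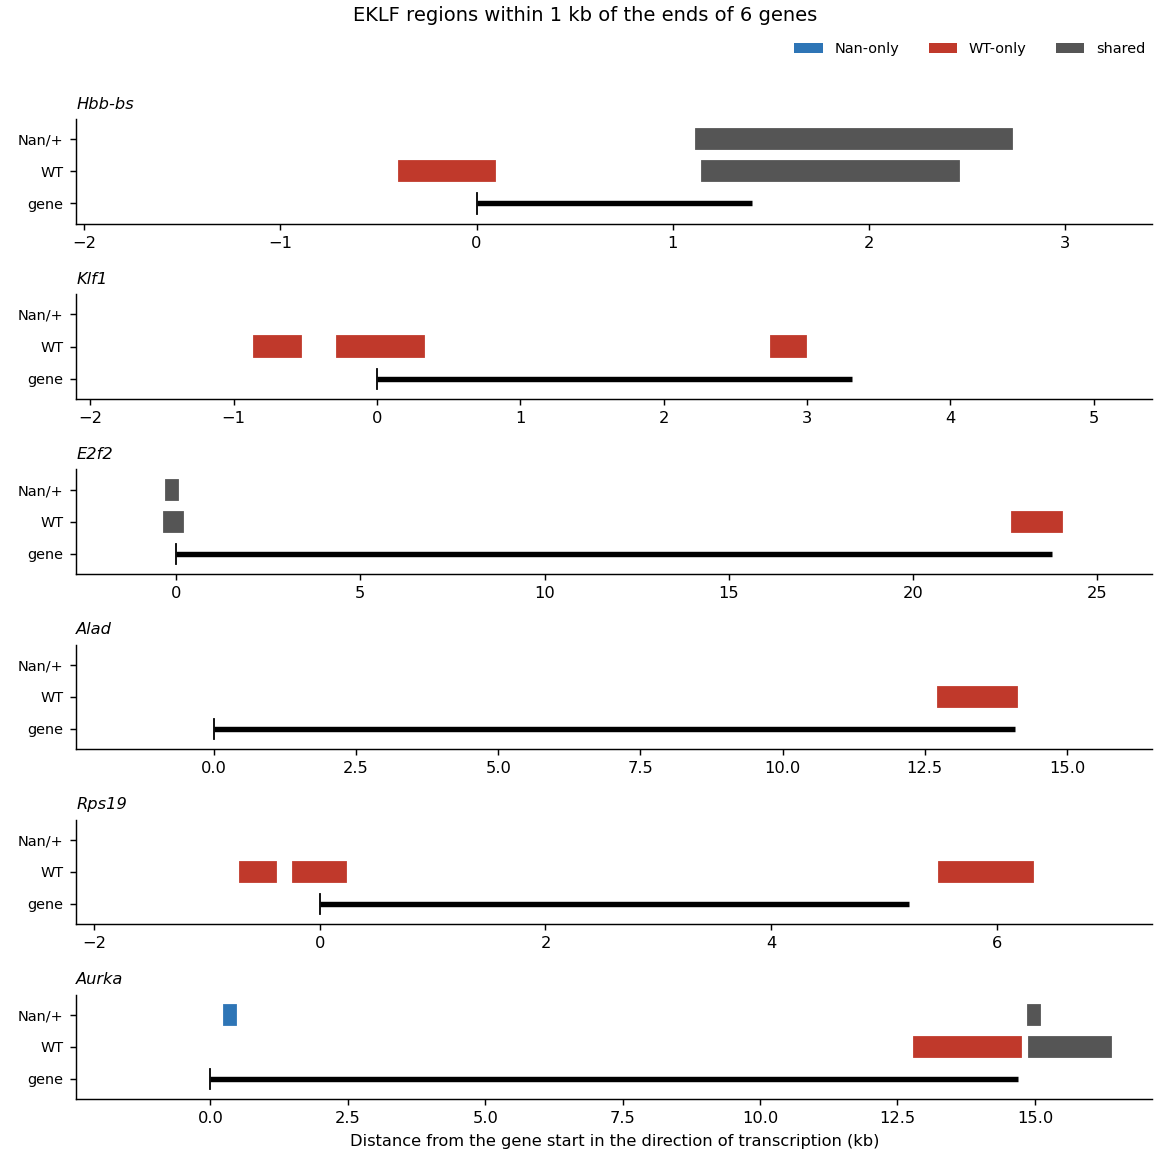
EKLF regions whose centre lies within 1 kb of an end of Hbb-bs, Klf1, E2f2, Alad, Rps19 and Aurka, by distance from the gene start in kb, with Nan/+ regions in the upper row and WT regions in the middle row of each panel and the gene as a black bar. Hbb-bs and E2f2 each combine a shared region at one end with a WT-only region at the other, Klf1 and Rps19 have 3 WT-only regions each (Nan/+ regions farther from the ends are not drawn), and Aurka has WT-only, shared and Nan-only regions.

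A WT-only region lay at an end of 3013 of 21521 protein-coding genes, which is 14%. For comparison, 8.21% of genes (1766) had a shared region and 9.16% (1972) a Nan-only region at an end. Of the 3013 genes, 82.7% (2492) had neither of the others at an end, 6.24% (188) also had a shared region, and 11.9% (358) also had a Nan-only region. Some Nan/+ region, shared or Nan-only, was present in the gene body or within 1 kb of it in 41.0% of the 3013 genes (1236), against 29% of all protein-coding genes. Inside the gene, more than 1 kb from both ends, a further WT-only region was present in 16.5% of the 3013 genes and 8.36% of all genes, and a Nan-only region in 29.1% and 17.2%. Members were not particular in this. With a shared region at an end, 19.65% of genes had a WT-only and 34.8% a Nan-only region inside. With a Nan-only region at an end the values were 16.1% and 30.5%. Genes with a member were also longer (median 20.15 kb) than protein-coding genes as a whole (17.38 kb). So were genes with a shared (24.07 kb) or Nan-only region (20.83 kb) at an end. The part of length in these percentages was not tested.

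Members came in groups at some genes. There were 209 genes with 2 or more members, 14 with 3, and 98 with members at both ends. Klf1 was among those with 3: a 329 bp region upstream (chr8:84901121-84901449), a 606 bp region over the start (chr8:84901702-84902307) and a 244 bp region 439 bp inside the far end (chr8:84904731-84904974), with no Nan/+ region centred within 1 kb of either end. A Nan/+ region nevertheless lay 493 bp from the member over the Klf1 start. Rps19, the ribosomal protein gene most often mutated in human Diamond-Blackfan anemia, had 3 as well, of 324 and 469 bp at its start and 840 bp at its far end, the last of these 620 bp from a Nan/+ region. Smim1, which encodes a small red cell membrane protein carrying the Vel antigen in humans, had 491 bp at its start and 526 and 1029 bp at its far end. The 1029 bp region lay closer to the far end of Lrrc47. Fzr1 had 691 bp at the start and 1225 bp at the far end, and Ube2c, the ubiquitin-conjugating enzyme that works with the anaphase-promoting complex, had 599 bp at the start and 820 bp at the far end, the second of these 20 bp from a Nan-only region of 226 bp near the same end. A single member could lie near more than 1 gene: 522 members (19.3%) were within 1 kb of ends of 2 or more genes, and 288 (10.7%) were within 1 kb of the starts of 2 genes on opposite strands, against 10.8% of shared regions.

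Globin genes and erythroid regulators had both WT-only and shared regions. Of 7 globin genes, 2 had a member (28.6%), 4 a shared region (57.1%) and 3 a Nan-only region (42.9%). Over all genes these percentages were 14%, 8.21% and 9.16%. Members lay at the start of Hbb-bs (492 bp) and of Hbb-bt (304 bp), and both genes also had a shared region near the far end. The shared regions there spanned 1612 bp in Nan/+ and 1310 bp in WT at Hbb-bs, and 176 bp in Nan/+ and 2092 bp in WT at Hbb-bt, where a Nan-only region of 176 bp lay beside them. Among 27 erythroid transcription factors and cofactors, 7 had a member (25.9%; 11.1 to 46.3) and 10 a shared region. Zfpm1 and Klf1 had the widest members of this list. Tal1, a master regulator of blood formation, had members of 414 and 248 bp near its start and a shared region at its far end. Gata1, Bcl11a, the repressor of fetal-type globin genes, and Dmtn, which encodes the actin-bundling protein dematin, had no region of either list at an end.

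Heme and membrane genes had members at a higher percentage of genes than the 14% of all genes. Members lay at 10 of 15 heme synthesis genes (66.7%; 38.4 to 88.2), while 6 had a shared (40%) and 4 a Nan-only region (26.7%). Shared and Nan-only regions were thus also above their percentages of all genes (8.21% and 9.16%). The widest members were those at Alad, at Slc25a38 (834 bp over the start, chr9:120110220-120111053) and at Alas2. Fech, which inserts iron into heme, had a member of 404 bp beside a shared region at the same end. Of 23 red cell membrane and cytoskeleton genes, 11 had a member (47.8%; 26.8 to 69.4), led by Slc4a1, Ermap (which carries the Scianna blood group in humans; 1266 bp) and Icam4 (1090 bp). Shared regions were frequent in this list too, at 9 of the 23 genes (39.1%), against 8.21% of all genes. Slc4a1 also had a shared region of 3553 bp in WT at its other end. Iron handling genes had members at 5 of 15 (33.3%; 11.8 to 61.6) and shared regions at 3. Tfrc had the widest member, followed by Ftl1 (the ferritin light chain; 603 bp) and Steap3 (the endosomal ferrireductase; 402 bp). Epo and Kit signalling had 3 of 20 (15.0%; 3.21 to 37.9), close to the percentage of all genes: Jak2, the kinase that signals from the erythropoietin receptor (537 bp), the survival kinase gene Pim1 (279 bp) and Epor (276 bp, with a shared region elsewhere near its start). A shared region lay at 5 of these 20 genes.

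Cell division genes were read in 3 lists. Members lay at 15 of 29 mitotic kinase and anaphase regulator genes (51.7%; 32.5 to 70.5), against 14% of all genes. Of these 15, 13 had neither a shared nor a Nan-only region at an end, as did 82.7% of all genes with a member. Of the 29, 4 had a shared region (13.8%) and 7 a Nan-only region (24.1%), against 8.21% and 9.16% of all genes. Aurka, Fzr1 and Wee1, the kinase that restrains entry into mitosis (1083 bp), had the widest members. Members lay at 8 of 28 E2F, retinoblastoma and G1 regulator genes (28.6%; 13.2 to 48.7), led by E2f4, E2f2 and Cdkn2c, the p18 inhibitor of cyclin D kinases (1143 bp). Of these 28, 6 had a shared region (21.4%) and 7 a Nan-only region (25%). At replication genes the count was 7 of 28 (25%; 10.7 to 44.9), with Mcm4 (496 bp) and Mcm6 (411 bp) of the replicative helicase and Cdt1 (489 bp), which loads it. The Mcm4 member was 112 bp from a Nan-only region. Shared and Nan-only regions had the same count at replication genes. Their percentages of all genes are lower (8.21% and 9.16%) than that of members (14%). The difference between the mitotic and replication lists was not tested, and their 95% intervals overlapped.

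Many lists of general cell functions also lay above the percentage of all genes. Members lay at 22 of 55 translation initiation factor genes (40.0%; 27 to 54.1), with Eif4g2 (1279 bp), Eif2s2 (978 bp) and Eif2ak4 (871 bp) widest. The centre of the Eif2s2 region was 510 bp past its far end and 111 bp inside the far end of Raly, the nearest end. The initiation factor genes were not the only such list. They lay at 29 of 86 cytoplasmic ribosomal protein genes (33.7%; 23.9 to 44.7), where Rps19, Rpl35a (811 bp) and Rps13 (719 bp) had the widest, and at 6 of 15 housekeeping genes commonly used as controls (40.0%; 16.3 to 67.7). Shared regions were also above their percentage of all genes in these lists. They lay at 12 translation initiation factor (21.8%), 20 ribosomal protein (23.3%) and 3 housekeeping genes (20%), against 8.21% of all genes. Of 49 complex I genes of the respiratory chain, 15 had a member (30.6%), 3 a shared region (6.12%) and 9 a Nan-only region (18.4%). Of 43 genes of ATP synthase and complexes III and IV, 14 had a member (32.6%), 1 a shared region (2.33%) and 8 a Nan-only region (18.6%). Over all genes members also exceeded shared regions (14% against 8.21%), and the difference from these lists was not tested. Examples are Ndufa6 (684 bp) of complex I and Atp5j (835 bp) of ATP synthase. The centre of this Atp5j region was 886.5 bp from the Atp5j start and 80.5 bp from the Gabpa start, the nearest end. Of 40 proteasome genes, 11 had a member, among them Psma7 of the core ring (680 bp), 3 a shared region and 7 a Nan-only region. Members also lay at 9 of 23 antioxidant genes (39.1%), led by the quinone reductase gene Nqo1 (885 bp), at 7 of 22 glycolysis genes (31.8%), led by pyruvate kinase Pkm (742 bp), and at 11 of 37 ubiquitin-conjugating enzyme genes (29.7%), where 12 had a Nan-only region. A shared region lay at 7 of the antioxidant, 3 of the glycolysis and 5 of the ubiquitin-conjugating enzyme genes. Pkm also had a Nan-only region near its start, 371 bp from the member. Rab GTPases (13 of 59), mitochondrial ribosomal proteins (16 of 77), KLF and Sp factors (5 of 26), mitochondrial SLC25 carriers (9 of 47) and kinesins (6 of 38) had members at between 15.8 and 22.0% of their genes. In that order, the intervals were 12.3 to 34.7, 12.4 to 31.5, 6.56 to 39.35, 9.15 to 33.3 and 6.02 to 31.25%. All of these include the 14% of all genes. Shared regions lay at 14, 11, 6, 9 and 4 of their genes. Rab11a (1639 bp), a GTPase of recycling endosomes, and Sp3 (1020 bp), which also binds GC-rich elements, had the widest members of their families. The Rab11a member was 143 bp from a Nan/+ region.

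Among chromatin and transcription machinery genes, members lay at 14 of 36 chromatin remodelling and histone methylation genes (38.9%; 23.1 to 56.5), led by Ino80 (1383 bp), the Polycomb subunit gene Eed (1168 bp) and the H3K36 methyltransferase gene Setd2 (1106 bp). They lay at 9 of 24 acetyltransferase and deacetylase genes (37.5%; 18.8 to 59.4), with Kat6a (926 bp) and Hdac2 (846 bp). For RNA polymerase II pausing and elongation, 9 of 32 genes had a member and 9 a shared region (28.1% each; 13.8 to 46.8), against 14% and 8.21% of all genes. Members lay at Mepce, which caps the 7SK RNA (982 bp), and at the gene of the acetyl-lysine reader Brd2 (659 bp). Autophagy and organelle clearance had 9 of 24 (37.5%), with Bnip3 (571 bp), a mitophagy receptor, widest. DNA repair had 12 of 32 (37.5%), led by Rad50 (992 bp), and the spliceosome 10 of 30 (33.3%), led by Prpf3 (876 bp). Shared regions lay at 11 of the 36 chromatin remodelling and histone methylation genes (30.6%), against 8.21% of all genes. They lay at 3 of the 24 acetyltransferase and deacetylase genes, 4 of the 24 autophagy, 6 of the 32 repair and 6 of the 30 spliceosome genes.

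Olfactory receptor and keratin genes, which serve the nose and epithelia, held few members, and markers of most other fetal liver cells held none. A member lay at 1 of 1109 olfactory receptor genes and 1 of 53 keratin genes. None lay at the 18 hepatoblast, 14 macrophage, 13 endothelial and stellate, or 15 lymphoid, myeloid and stem cell marker genes. In that order, the exact upper limits were 18.5, 23.2, 24.7 and 21.8%. Each of these intervals includes the 14% of all genes, so no single marker list was shown to lie below it. The genes of these marker lists had no shared or Nan-only region at an end either. EKLF is a red cell factor, so these counts do not measure how many such cells the samples held. Of 15 megakaryocyte markers 2 had a member (13.3%; 1.66 to 40.5), close to the 14% of all genes. They were Gp1ba (460 bp) and Vwf (303 bp), both encoding parts of platelet adhesion. Of 21 aminoacyl-tRNA synthetase genes 2 had a member and 5 a shared region, and zinc finger genes of the Zfp family had members at 41 of 367 (11.2%; 8.14 to 14.8).

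**Figure D4:**
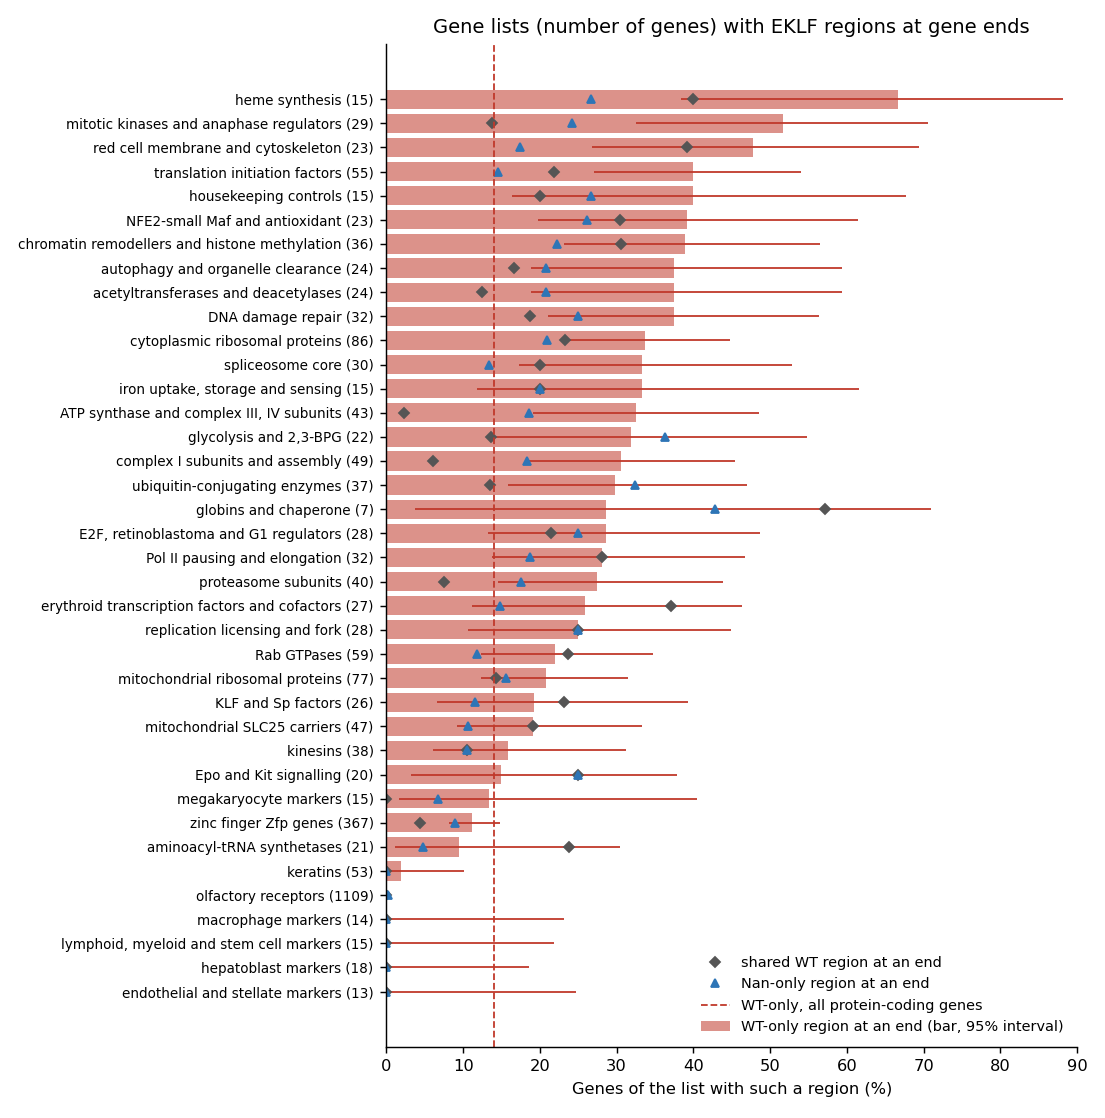
Percentage of genes in each list with a WT-only region at an end (bars, with exact 95% intervals), a shared WT region (diamonds) or a Nan-only region (triangles); the number of genes is in parentheses and the dashed line marks the 14% of all protein-coding genes with a WT-only region. Heme synthesis is highest at 66.7% and mitotic regulators follow at 51.7%, while 4 lists of other liver cell types are at 0, with intervals that include the 14%.

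The promoters under the members were GC-rich. Of 21045 RefSeq promoter windows of 300 bases, 2132 (at 1923 genes) were overlapped by a member and by no other class. Their median GC content was 63.5% (63.0 to 64.0), against 65.3% (64.7 to 65.7) for 1398 windows with a shared region, 62.0% for 835 windows with a Nan-only region and 56.7% for all windows. A CpG ratio, observed over expected, of at least 0.6 was found in 88.1% of windows with a member, 91.7% of those with a shared region, 82.5% of those with a Nan-only region and 48.1% of all. Several promoters printed above had far lower ratios, namely 0.109 in Hbb-bs, 0.0633 in Hbb-bt, 0.152 in Klf1 and 0.266 in Epor, whereas Tfrc had 0.940 and Fzr1 1.09.

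CCNCNCCC, counted on both strands and with overlapping matches, occurred in 75% (73.2 to 76.9) of windows with a member. It occurred in 78.5% (76.2 to 80.6) of windows with a shared region, 71.7% (68.5 to 74.8) of those with a Nan-only region and 57.1% of all windows. The motif is made mostly of C, and GC content moved with it: among windows of 60 to 70% GC, the percentages were 78.5% with a member, 83.2% with a shared region, 81.4% with a Nan-only region and 80.5% of all windows. At 50 to 60% GC they were 62.7% with a member, 59.2% with a shared region, 55.6% with a Nan-only region and 57.0% of all windows, so the order of the classes was not the same. Below 50% GC they were 32.2% (28 of 87) with a member, 32.3% with a shared region, 39.0% with a Nan-only region and 19.6% of all windows. Matches were densest in the 50 bases before the start, with 13.1 per kb in windows with a member, 13.9 per kb in those with a shared region and 8.83 per kb in all windows. Within the windows of the members, bases covered by the region held 8.18 matches per kb and uncovered bases 5.51. The same measure gave 9.66 and 5.03 for shared regions and 8.24 and 5.47 for Nan-only regions. Regions centre near the start, where matches are densest, and the part of position was not tested.

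**Figure D5:**
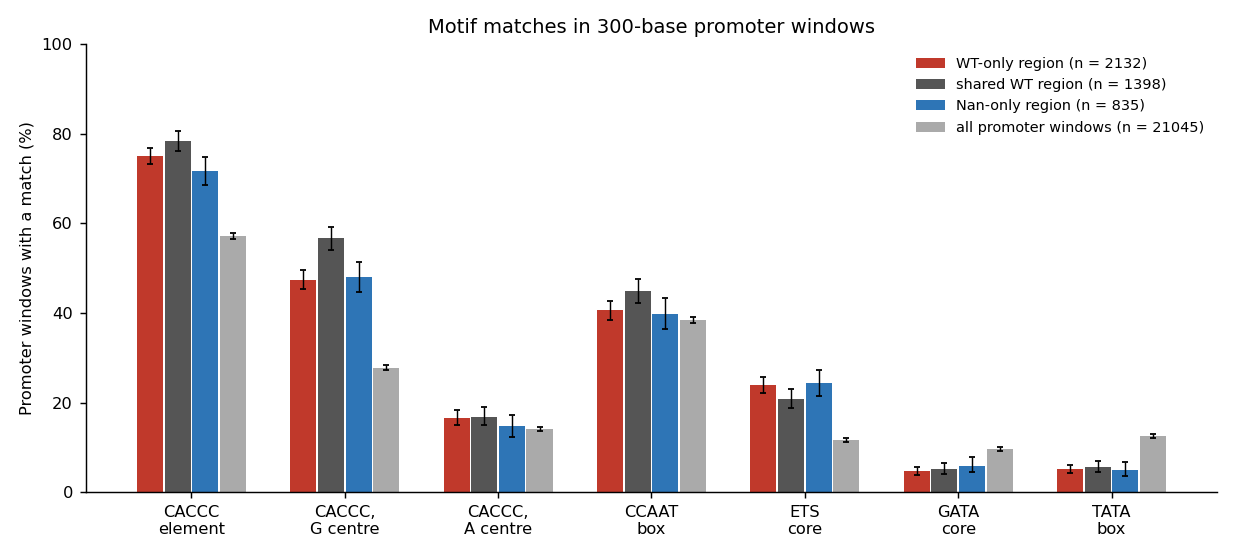
Percentage of 300-base promoter windows with at least 1 match to each motif, on either strand, for windows overlapped by a WT-only, shared or Nan-only region and for all windows (bars, with exact 95% intervals). The G centre bars count CCACGCCC or CCCCGCCC, found in 47.5% of windows with a WT-only region, 56.7% of those with a shared region and 27.8% of all windows. The A centre bars count CCACACCC or CCCCACCC.

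The base at the centre of the CACCC element, the 5th of its 8 letters, was then compared, since the Nan protein is known to differ there. CCACGCCC or CCCCGCCC, with G at the centre, occurred in 47.5% (45.3 to 49.6) of windows with a member, against 56.7% (54.0 to 59.3) with a shared region, 48.0% (44.6 to 51.5) with a Nan-only region and 27.8% of all windows. CCACACCC or CCCCACCC, with A at the centre, occurred in 16.7% (15.1 to 18.3) with a member, 16.9% (15.0 to 18.9) with a shared region, 14.7% with a Nan-only region and 14.2% of all. All 4 strings lie within CCNCNCCC. The lower percentage of the G form in windows with a member than with a shared region was also seen within GC classes. It was 51.9% and 60.4% at 60 to 70% GC and 65.6% and 75.3% at 70% GC and over. At 50 to 60% GC it was 32.3% (28.5 to 36.2) and 35.0% (29.6 to 40.8). Below 50% GC it was 6.90% (2.57 to 14.4) and 10.8% (4.44 to 20.9), so the intervals of these lower classes overlapped. Windows with a Nan-only region had 53.9% at 60 to 70% GC and 73.0% at 70% GC and over. A count over all CCNCNCCC matches is a wider measure, since it also takes strings such as CCGCGCCC and CCTCGCCC. In it, G stood at the centre in 41.8% (40.4 to 43.2) of 4785 matches under the members, 46.9% (45.3 to 48.5) of 3686 under shared regions and 33.0% over all windows, and A in 11.6% (10.7 to 12.6), 9.39% (8.46 to 10.4) and 13.8%. Matches of 1 window share their sequence, so these intervals are too narrow. The classic β-globin form CCACACCC, present in Hbb-bs, was rare in each class, in 4.03% (3.24 to 4.96) of windows with a member, 4.58% with a shared region, 4.91% with a Nan-only region and 3.64% of all windows.

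Motifs of other factors were counted in the same windows. The ETS core CCGGAAG occurred in 23.9% (22.1 to 25.8) of windows with a member, 20.9% (18.8 to 23.1) with a shared region, 24.3% with a Nan-only region and 11.7% of all. The NRF1 core was found in 3.85% (3.07 to 4.75) with a member, 1.86% (1.22 to 2.71) with a shared region, 2.99% with a Nan-only region and 1.34% of all. CCAAT was in 40.6%, 44.8% and 39.9% of the windows with a WT-only, shared and Nan-only region, and in 38.5% of all. TATAAA was in 5.16%, 5.65% and 5.03% of the same classes and 12.7% of all windows, and AGATAA in 4.78%, 5.22% and 5.99% of them and 9.68% of all. Both of these strings are AT-rich and were rarer in the GC-rich windows of all 3 classes.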

How the data were processed

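The authors deposited 1 list of region positions per genotype (mm10, 1-based here) with a score column that equals 1 in every row and was not used. Per the submitters' processing notes, reads were processed with bcl2fastq 2.17, Bowtie2 2.1, SAMtools 1.1, deepTools 3.5 and HOMER. Per the file headers, regions were called on 3 ChIP libraries per genotype with inputs, at a q-value of 0.01 and a fold of 4, with a peak size of 175 and minimum distance of 300 for Nan/+ and 125 and 250 for WT, then kept at an FDR of 0.01 with a log2 cut-off of 2. Of the input libraries, 1 per genotype stood for 2 of the ChIP libraries. The header tag totals were 72023512 to 100763687 in Nan/+ ChIP libraries and 74140385 to 103170594 in WT. Tags are not independent molecules.

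Overlap (1 bp or more) and the distance of region centres to the ends of 21521 RefSeq protein-coding genes of the main chromosomes were computed in Python 3.11.15 with pandas 2.3.3 and SciPy 1.17.1 (Clopper-Pearson 95% intervals), and checked on simulated regions. Strand came from the promoter table, which covers 17274 genes and leaves out chromosome 18, so 502 members have no known direction. Exon and intron positions were not used here. Of the WT list, 7 regions on chrM or unplaced sequence were left out.

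Members and gene lists were chosen with earlier results of these data known. Genes named are the 12 widest members, up to 3 genes per list by widest member, the 6 with most members, the 6 with the widest members at both ends, and a short fixed set (Klf1, E2f2, E2f4, Aurka, Hbb-bs, Hbb-bt, Alad, Fech, Dmtn, Tal1, Gata1, Bcl11a, Epb42). With 1 list per genotype no test between samples could be made. A planned filter on the score was replaced by one on width, since the score is constant. Alternatives were other end distances, overlap rules, width filters and motif rules.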

Additional observations from a re-analysis of the deposited data

How the results depend on the processing

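No paired analysis was possible because the lists hold no column per replicate, and for the same reason no replicate could be left out. Of 46 alternative values, 16 stayed within the 95% interval of the value reported, 12 were counts with no interval that stayed within 1.5 times of it, and 18 moved. Those counts ran from 2267 (centres within 500 bp) to 3310 members (reciprocal overlap) and from 2559 to 3640 genes under the same settings. With centres within 500 bp of an end, 62.3% of WT regions at gene ends were WT-only, 94.6% of members were at the start, and the median width was 454 bp; within 2 kb the values were 65.7%, 89.2% and 426 bp. Requiring a reciprocal overlap of 50% for sharing gave 78.3% WT-only and 464 bp. Counting a Nan/+ region within 250 bp or 1 kb as shared gave 60.8% and 55.5% WT-only, and leaving out Nan/+ regions of the minimum width gave 68.1%; all 3 follow from how sharing is counted. Keeping WT regions of at least the median width (396 bp) gave 1574 members at 1840 genes, 58.3% WT-only, 94.5% at the start, a median width of 582 bp and CCNCNCCC in 76.9% of windows. With CCACACCC or CCACGCCC in place of CCNCNCCC the percentage was 16.6%, since the strings are fewer. Using 1 promoter window per gene, chosen after seeing the data, gave 74.4%. The lists were called with different sizes and minimum distances, the regions carry no height, and a region missing from a list is not shown to be unbound; how far these set the WT-only calls was not tested.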

Other observations

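Members were spread over all chromosomes. The X chromosome was chosen after its values were seen, as the extreme of 20 chromosomes. It had the lowest percentage of genes with a member and the highest WT-only percentage. Its interval for genes with a member overlapped only those of chromosomes 6 and 7. Its WT-only interval overlapped those of all chromosomes except 3, 6, 13 and 16. On X, 8.00% of genes (77 of 963; exact 95% interval 6.36 to 9.89) had a member, against 14% of all protein-coding genes, while 76.9% (66.9 to 85.1) of the 91 WT regions at its gene ends were WT-only, against 63.8% over all chromosomes. Chromosomes 8 and 11 had the highest percentages of genes with a member, 19.2% (16.8 to 21.7) and 19.1% (17.2 to 21.1).

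Noncoding genes lay beside some members. An end of a long noncoding RNA gene was within 1 kb of 10.7% (9.60 to 12) of members, 12.7% (11.1 to 14.4) of shared regions and 9.76% (8.44 to 11.2) of Nan-only regions at protein-coding gene ends. A miRNA hairpin lay within 1 kb of 14 members. Members overlapped the hairpins of Mir5132 and Mir718, both under the 658 bp member at Irak1 (an interleukin-1 receptor kinase), Mir7071 at Heatr3, Mir7238 at Ankrd10 and Mir8116 at Ache, which encodes acetylcholinesterase. These genes were chosen after their values were seen.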
